A study of Homo sapiens with 17 samples.

Results

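The eIF2 alpha kinases EIF2AK1 (HRI), EIF2AK2 (PKR), EIF2AK3 (PERK) and EIF2AK4 (GCN2) and the GCN2 partner GCN1 were followed through ribosome footprints and mRNA of HEK293 cells after genome editing. The 5 genes were taken by symbol, out of 17285 genes with any count, and all 5 passed the count minimum at both time points, where 9016 genes were tested at 36 h and 10896 at 72 h. HEK293 is a human embryonic kidney cell line. Cells were electroporated with Cas9 or with dCas9, a Cas9 without nuclease activity, each bound to sgIntron, a guide that directs it to an intron of JAK2, so both groups received protein and guide and differed in the cut. Cells were lysed 36 h or 72 h later, and libraries were made of ribosome-protected fragments (footprints, counted on coding sequence) and of rRNA-depleted RNA (mRNA), for which lysates were split per the study's methods. At 36 h there were 2 Cas9 (a, c) and 2 dCas9 (d, e) footprint libraries with 3 Cas9 (a, b, c) and 2 dCas9 (d, e) mRNA libraries. At 72 h there were 2 libraries of each kind per nuclease, lettered e and f for footprints and a and b for mRNA, which makes 17 libraries. The guides were synthetic at 36 h and transcribed in vitro at 72 h, and the reads of each time point went through their own alignment and annotation, so time cannot be told apart from these steps. No cells without electroporation were analysed here. The study's methods describe a biological replicate as a plate into which several electroporations were pooled, and p-values measure the spread between libraries of such plates, all from 1 cell line.

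In eukaryotes eIF2 brings the initiator tRNA to the ribosome, and phosphorylation of its alpha subunit, EIF2S1, turns it into an inhibitor of its own exchange factor eIF2B. Translation then falls for most mRNAs while some with upstream reading frames, such as that of the transcription factor ATF4, are translated better, which is known as the integrated stress response. The 4 kinases put the phosphate on the same residue and differ in what they sense: HRI responds to low heme and to mitochondrial stress, PKR to double-stranded RNA, PERK to unfolded protein in the endoplasmic reticulum, and GCN2 to uncharged tRNA and stalled ribosomes, for which it needs the ribosome-bound scaffold GCN1. PKR is also an interferon-induced gene. Counts of RNA and footprints measure how much of each transcript was present and being translated, not the activity of the kinase.

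The genes lie on 4 chromosomes of GRCh38. EIF2AK1 (ENSG00000086232) lies at chr7:6022247-6059175 on the minus strand, EIF2AK2 (ENSG00000055332) at chr2:37099210-37157522 on the minus strand, EIF2AK3 (ENSG00000172071) at chr2:88556741-88691518 on the minus strand, EIF2AK4 (ENSG00000128829) at chr15:39934115-40035591 on the plus strand and GCN1 (ENSG00000089154) at chr12:120127202-120194715 on the minus strand. Their coding sequences hold 630, 551, 1116, 1649 and 2671 codons in that order, and counts were taken from the representative (MANE) transcript of each. The coding sequence of EIF2AK2 has a GC content of 37.8%, lower than that of all but 1.56% of the genes tested at 72 h, whereas the others have 47.0% (EIF2AK1), 45.5% (EIF2AK3), 47.7% (EIF2AK4) and 57.2% (GCN1).

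The start of EIF2AK2 is shown because it carries the letters of the element through which interferon acts on this gene. RefSeq promoters (GRCh38.p14, 250 bases before to 50 after the start) were matched for 4 of the 5 genes, EIF2AK1 being without an entry. The window below lies at chr2:37156967-37156996, is read on the minus strand, and has in capitals a match to the core of the interferon-stimulated response element (GAAA, any 2 bases, GAAA), which reaches from 6 bases before to 4 bases after the start.
EIF2AK2 start: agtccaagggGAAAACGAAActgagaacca
Searched on both strands, this motif was found for 1 of the 4 genes, EIF2AK2. It was found for 13 of 19 interferon-induced genes of the list given further on, and in 1255 of 35116 promoters (3.57%) in all. A gene was counted if any promoter listed for it matched, whereas the total counts promoters. TGATGNAAT, a core of the element that ATF4 and its partners bind, was in no promoter of the 4 genes. In all it was in 348 promoters (0.991%). A match is a description of letters and not of a bound site.

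The 17 libraries held 689636 to 4868580 footprint counts and 25095493 to 33350938 mRNA counts at 36 h, and 3183559 to 8864461 footprint counts and 33040296 to 42825661 mRNA counts at 72 h. The footprint library dCas9 e at 36 h was the shallowest. VIM (599 to 2385 counts per 1000000, CPM), CDH2 (84.2 to 148 CPM) and KRT18 (51.1 to 144 CPM), which HEK293 cells express, were present in every library, KRT8 and PAX2 were low (0 to 9.74 and 0 to 2.03 CPM), and the summed markers of erythroleukemia cells stayed at or under 0.943 CPM and the hepatocyte gene ALB at or under 0.243 CPM.

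HRI was the most abundant kinase transcript and PERK the least, in every library. To compare genes, levels were set per length, as CPM per kilobase of counted coding sequence. In mRNA at 36 h EIF2AK1 stood at 95.9 ± 4.86 CPM per kilobase (SD, n = 5 libraries of both nucleases), GCN1 at 63.8 ± 4.31, EIF2AK4 at 22.6 ± 0.790, EIF2AK2 at 17.04 ± 2.19 and EIF2AK3 at 8.999 ± 1.71. This order was the same in 5 of 5 libraries. In mRNA at 72 h (n = 4) the levels per kilobase were 93.5 ± 8.59 for EIF2AK1, 57.5 ± 5.44 for GCN1, 28.2 ± 7.98 for EIF2AK2, 21.1 ± 1.92 for EIF2AK4 and 10.2 ± 1.09 for EIF2AK3. EIF2AK2 and EIF2AK4 were neighbours that did not differ beyond their spread here, since EIF2AK2 was the higher in 3 of 4 libraries. Against the other tested genes at 72 h, the mean mRNA level per kilobase of EIF2AK1 exceeded that of 84.7% of genes, GCN1 that of 75.03%, EIF2AK2 that of 53.9%, EIF2AK4 that of 44.7% and EIF2AK3 that of 23.2%.

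Footprints gave a different order. At 36 h (n = 4) GCN1 had 50.5 ± 2.99 and EIF2AK1 47.2 ± 9.17 footprint CPM per kilobase, followed by EIF2AK2 with 29.0 ± 4.23, EIF2AK4 with 6.83 ± 2.09 and EIF2AK3 with 3.04 ± 1.78. GCN1 and EIF2AK1 did not differ beyond their spread, each leading in 2 of 4 libraries. At 72 h (n = 4) the order was the same in 4 of 4 libraries, with 60.8 ± 2.28 for GCN1, 52.2 ± 3.38 for EIF2AK1, 29.3 ± 2.42 for EIF2AK2, 5.82 ± 0.607 for EIF2AK4 and 3.33 ± 0.980 for EIF2AK3. EIF2AK2 thus stood above EIF2AK4 by a wide gap in footprints, with a per-length ratio of 4.78 ± 2.42 at 36 h and 5.08 ± 0.749 at 72 h, against 0.753 ± 0.0956 and 1.33 ± 0.286 in mRNA. GCN1, the scaffold GCN2 depends on, exceeded EIF2AK4 per length by 2.82 ± 0.222 fold in mRNA and 8.07 ± 3.14 fold in footprints at 36 h, and by 2.73 ± 0.242 and 10.5 ± 0.865 fold at 72 h.

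Summed over the 4 kinases, PKR took a larger part of the footprints than of the mRNA. Its share of the per-length mRNA was 11.8% ± 1.10 at 36 h (10.97% to 13.7%, n = 5) and 18.2% ± 3.19 at 72 h (14.2% to 21.9%, n = 4), and its share of the per-length footprints was 34.4% ± 8.43 (26.3% to 46.1%, n = 4) and 32.3% ± 2.05 (29.3% to 33.9%, n = 4). The ranges of footprint and mRNA libraries did not overlap at either time. HRI held the largest share throughout, with 66.4% ± 1.69 and 61.2% ± 2.62 of the mRNA and 54.4% ± 5.28 and 57.6% ± 2.33 of the footprints at 36 h and 72 h. GCN2 went from 15.7% ± 0.644 of the mRNA to 7.83% ± 1.88 of the footprints at 36 h and from 13.8% ± 0.653 to 6.43% ± 0.627 at 72 h. PERK was the smallest, at 6.21% ± 1.12 and 6.74% ± 0.901 of the mRNA and 3.42% ± 1.89 and 3.67% ± 1.05 of the footprints. The substrate EIF2S1, measured the same way, was 0.806 ± 0.0576 times the summed kinases in mRNA and 1.71 ± 0.602 times in footprints at 36 h, and 0.846 ± 0.131 and 1.64 ± 0.211 times at 72 h.

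**Figure D1:**
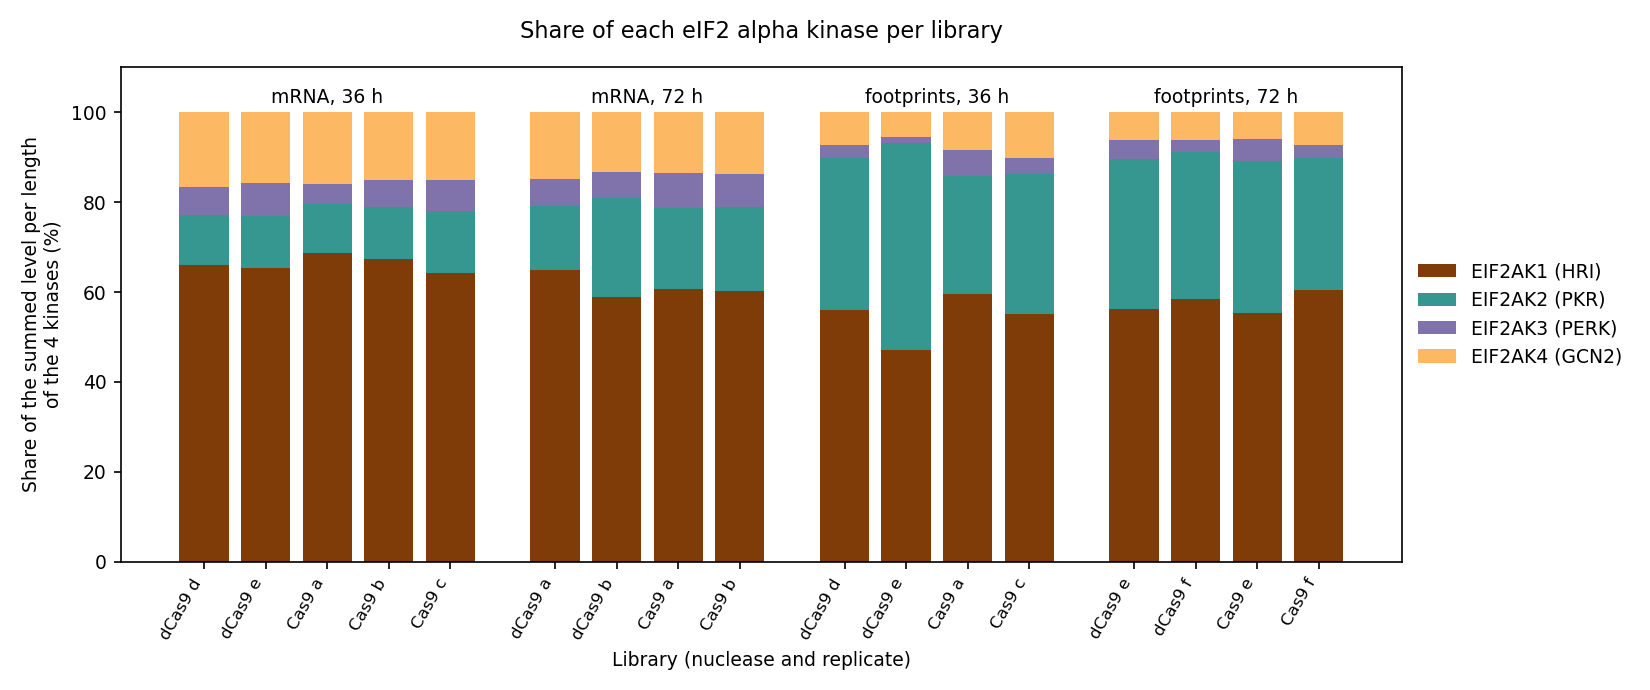
Stacked bars give the share of each kinase in the summed level per length of the 4 kinases (percent, vertical axis), with a bar for each of the 17 libraries in mRNA and footprints at 36 h and 72 h. The PKR segment spans 26.3% to 46.1% in footprints and 10.97% to 21.9% in mRNA.

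The question of how strongly each mRNA was translated was put to the control cells alone, by comparing footprints with mRNA in dCas9 libraries within 1 model of both library types. This model had no term for the lysate, so footprint and mRNA libraries made from 1 lysate were treated as independent. Values are log2 ratios of footprint to mRNA abundance with the standard error of the fit, and a call is a false discovery rate under 0.1 in edgeR (quasi-likelihood), p-values being adjusted over all genes by the method of Benjamini and Hochberg. At 36 h, 4 of the 5 genes were called, where 48.2% of all tested genes were (23.6% higher, 24.6% lower). EIF2AK2 was higher in footprints than in mRNA by 1.17 ± 0.25 (adjusted p = 0.00182), and 90.8% of genes had a lower ratio. EIF2AK4 was lower by 1.74 ± 0.21 in log2 (-1.74, adjusted p = 1.63e-05), EIF2AK3 stood at -1.89 ± 0.42 (adjusted p = 0.00249) and EIF2AK1 at -0.85 ± 0.17 (adjusted p = 0.00137). Of all genes 2.97%, 2.28% and 16.5% had lower ratios than these 3. Without footprint library dCas9 d the values of EIF2AK3 and EIF2AK1 were -3.21 and -1.29, still called. GCN1 stood at -0.19 ± 0.12 and was not called (adjusted p = 0.218). The median gene stood at -0.01.

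At 72 h the call held for the same 3 genes on the lower side and was absent for PKR. Of the 5 genes 3 were called, all lower, where 70.6% of tested genes were called (32.7% higher, 37.8% lower). EIF2AK4 stood at -1.87 ± 0.13 (adjusted p = 5.93e-09), EIF2AK3 at -1.51 ± 0.22 (adjusted p = 1.78e-05) and EIF2AK1 at -0.81 ± 0.11 (adjusted p = 1.13e-05), that is 0.273, 0.351 and 0.569 times the mRNA level. GCN1 stood at 0.13 ± 0.09 (adjusted p = 0.203). EIF2AK2 stood at 0.12 ± 0.22 (adjusted p = 0.645), a value that depended on which dCas9 mRNA library was kept. Without the mRNA library dCas9 a it was -0.21 (adjusted p = 0.209), and without dCas9 b it was 0.68 (adjusted p = 0.00067).

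Where a footprint and an mRNA library shared a letter at 36 h, the ratio of footprint CPM to mRNA CPM could be taken for each letter. For EIF2AK2 it was 1.56 and 1.36 in Cas9 a and c and 1.99 and 2.09 in dCas9 d and e, above 1 in 4 of 4. For EIF2AK4 it was 0.341, 0.400, 0.290 and 0.183 in the same order, and for EIF2AK1 0.564, 0.510, 0.557 and 0.372, all below 1. GCN1 gave 0.767, 0.777, 0.720 and 0.873. EIF2AK3 gave 0.840, 0.315, 0.306 and 0.0892, the last from 2 footprint counts.

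The same ratio was read for 29 other genes of the pathway. At 36 h, 4 of the 24 that were tested were called higher and 11 lower, with a median of -0.17, and at 72 h 7 of 26 were higher and 11 lower, with a median of -0.13 where the median of all genes was -0.06. Beside these counts stand the 23.6% higher and 24.6% lower of all genes at 36 h and the 32.7% and 37.8% at 72 h. Among the proteins that act on the kinases, 5 of 8 were called lower at 36 h and 6 of 9 at 72 h. These included ADAR, which edits double-stranded RNA that PKR could bind, at -0.65 ± 0.12 at 36 h (adjusted p = 0.000529) and -0.43 ± 0.10 at 72 h (adjusted p = 0.00135). HSPA5, the chaperone that holds PERK inactive, was called higher, at 1.18 ± 0.13 and 1.59 ± 0.14 (adjusted p = 6.89e-06 and 5.25e-08). ATF4 had the lowest ratio on the list, -2.89 ± 0.20 at 36 h and -3.54 ± 0.11 at 72 h (adjusted p = 5.31e-08 and 7.56e-13), which is 0.134 and 0.0858 times its mRNA level. Of the phosphatase that takes the phosphate off eIF2, the subunits PPP1R15A (-2.17 ± 0.17 at 72 h) and PPP1R15B (-1.42 ± 0.11) were lower as well. EIF2S1, the substrate, was higher at 0.74 ± 0.17 (adjusted p = 0.00256) and 0.50 ± 0.12 (adjusted p = 0.00170). PPP1CB, a catalytic subunit of the phosphatase, was higher at 1.18 ± 0.17 and 0.89 ± 0.16, and SESN2 was higher at 72 h by 0.81 ± 0.15.

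**Figure D2:**
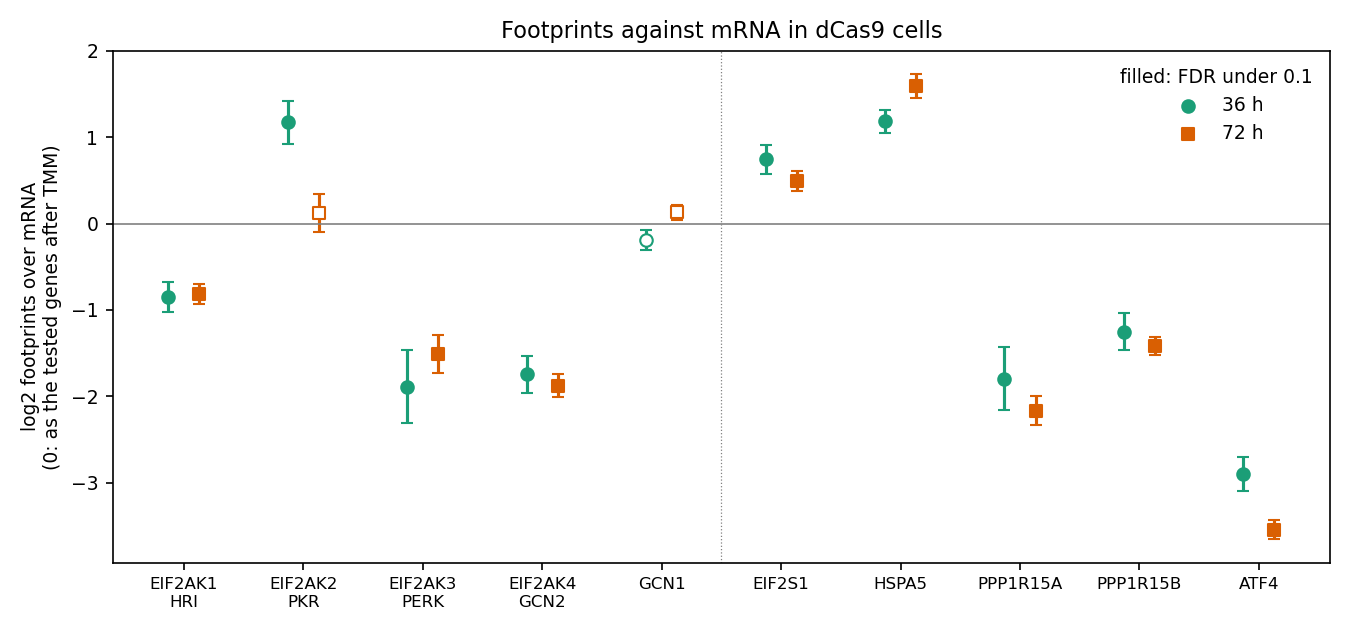
Log2 ratio of footprints to mRNA in dCas9 cells (vertical axis) at 36 h and 72 h for the kinases, GCN1 and selected pathway genes, with bars of 1 standard error of the fit and filled points past the false discovery rate of 0.1. PKR lies at 1.17 at 36 h and 0.12 at 72 h, whereas GCN2 lies at -1.74 and -1.87 and ATF4 at -2.89 and -3.54.

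The comparison of Cas9 with dCas9 cells asked whether a Cas9 cut was followed by more or less of each kinase, as transcript or as translating ribosomes. None of the 5 genes was called in footprints, mRNA or translational efficiency (footprints relative to mRNA, Cas9 against dCas9) at either time, and none had an unadjusted p under 0.05. edgeR called 0% of 9016 genes in footprints at 36 h, 0.0222% in mRNA at 36 h and 0% in translational efficiency at 36 h, and 0.0367% (0.0275% higher, 0.00918% lower), 2.69% (0.0275% higher, 2.66% lower) and 0.716% (0.698% higher, 0.0184% lower) of 10896 genes in the same measures at 72 h. The 293 calls in mRNA at 72 h held 3 higher ones, and with a correction for GC content there were 2372 calls of which 841 were higher. At 36 h footprints gave 0 calls and 188 genes with an unadjusted p under 0.05, and translational efficiency 0 calls and 568. DESeq2 called none of the 5 genes in any of these comparisons. In bulk samples fewer cells with a transcript and less of it per cell cannot be told apart.

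**Figure D3:**
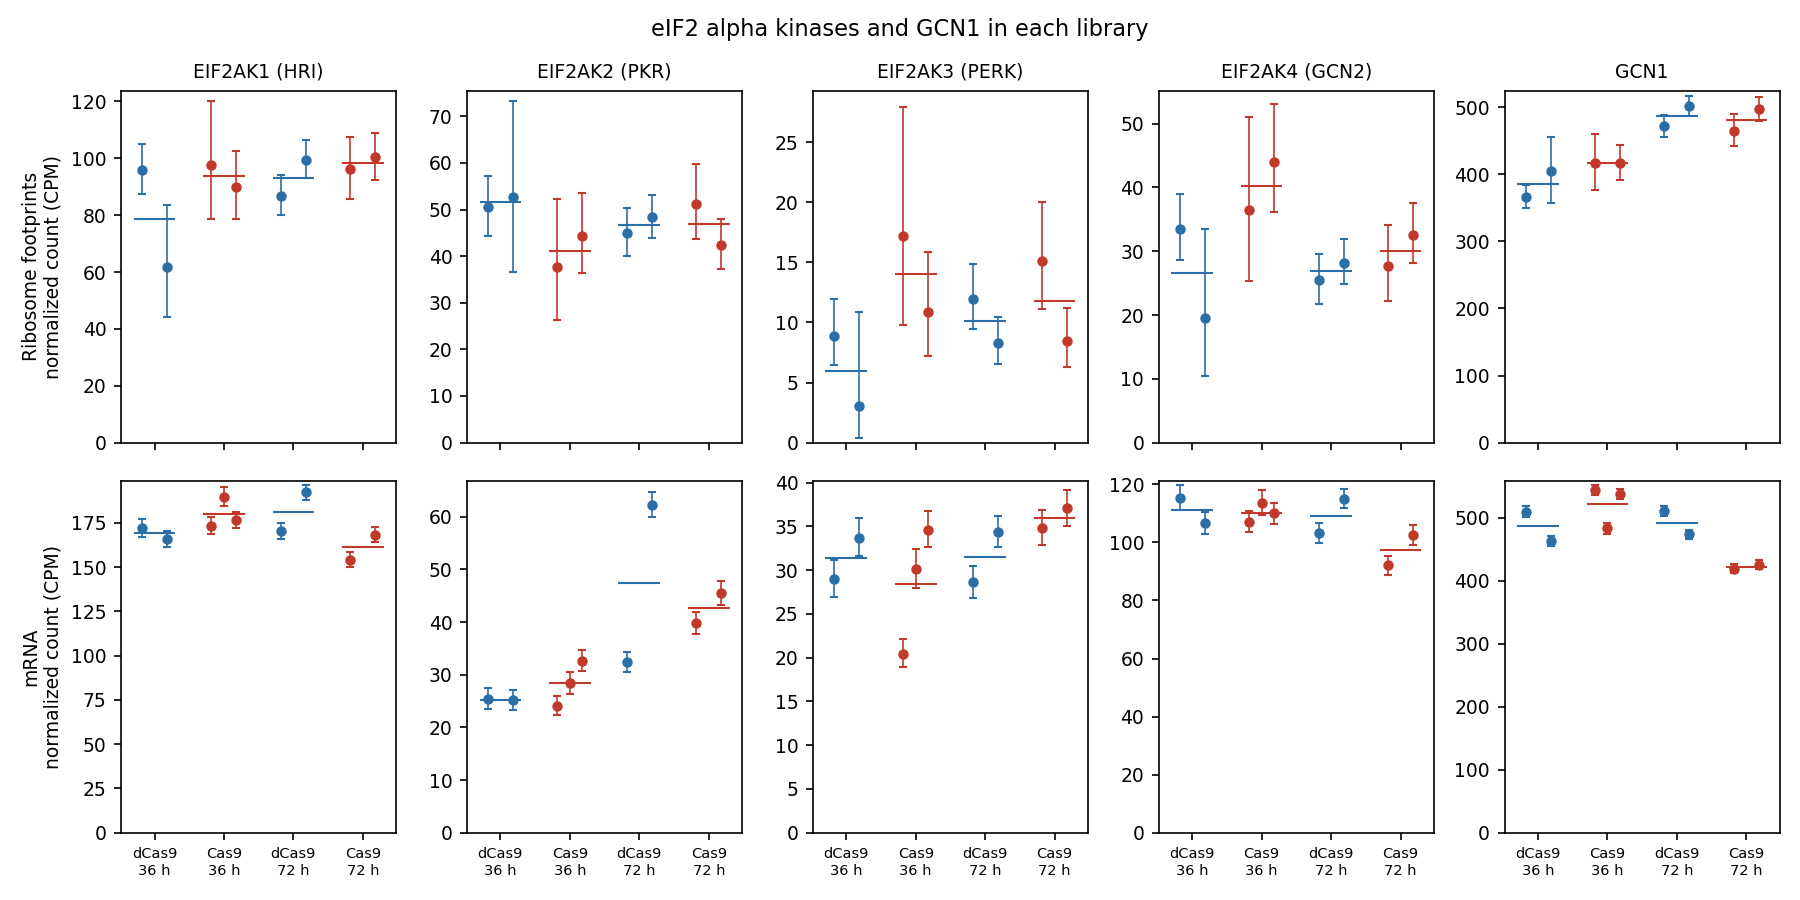
Normalized counts (CPM, vertical axes from 0) of each of the 5 genes, footprints in the upper panels and mRNA in the lower ones, with a point per library, its 95% counting interval and a line at the mean of each nuclease and time. The lowest point is PERK in the footprint library dCas9 e at 36 h, at 3.01 CPM, and the 2 dCas9 mRNA libraries at 72 h stand at 32.4 and 62.3 CPM for PKR, on either side of both Cas9 libraries.

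HRI footprints at 36 h were 97.8 and 90.0 CPM in Cas9 a and c and 95.9 and 61.6 CPM in dCas9 d and e. The groups overlapped, dCas9 e being the low library, and the log2 difference was 0.21 ± 0.31 (adjusted p = 0.999). HRI mRNA at 36 h was 173, 189.9 and 177 CPM in Cas9 a, b and c and 172 and 166 CPM in dCas9 d and e. Here all Cas9 libraries were above both dCas9 libraries, by a margin smaller than the spread among Cas9 libraries, and the difference was 0.09 ± 0.10 (adjusted p = 0.999). At 72 h HRI footprints were 96.2 and 100.4 CPM in Cas9 e and f and 86.8 and 99.5 CPM in dCas9 e and f, overlapping, with a difference of 0.08 ± 0.10. HRI mRNA was 154 and 168 CPM in Cas9 a and b and 170.4 and 192 CPM in dCas9 a and b. Both Cas9 libraries lay below both dCas9 libraries, and the difference was -0.17 ± 0.13 (adjusted p = 0.529), of the opposite sign to that at 36 h.

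PKR footprints at 36 h were 37.6 and 44.4 CPM in Cas9 a and c and 50.5 and 52.6 CPM in dCas9 d and e. The Cas9 libraries were the lower ones and the groups did not overlap, yet the difference of -0.32 ± 0.39 was smaller than its error. PKR mRNA at 36 h was 24.1, 28.4 and 32.7 CPM in Cas9 a, b and c and 25.4 and 25.2 CPM in dCas9 d and e, which overlapped (0.17 ± 0.17). Its translational efficiency at 36 h was -0.46 ± 0.34 (adjusted p = 0.868). At 72 h PKR footprints were 51.2 and 42.4 CPM in Cas9 e and f and 45.0 and 48.3 CPM in dCas9 e and f, overlapping, with a difference of -0.02 ± 0.14. PKR mRNA at 72 h was 39.8 and 45.5 CPM in Cas9 a and b and 32.4 and 62.3 CPM in dCas9 a and b, so that the dCas9 libraries lay on either side of both Cas9 libraries (-0.15 ± 0.23, adjusted p = 0.767).

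PERK had the widest errors of the 5 genes in footprints of Cas9 against dCas9 cells. Its footprints at 36 h were 17.2 and 10.9 CPM in Cas9 a and c and 8.88 and 3.01 CPM in dCas9 d and e, from 16, 27, 44 and 2 counts. The Cas9 libraries were the higher ones without overlap, and the difference was 1.06 ± 0.97 (adjusted p = 0.999). Without dCas9 e it was 0.63, and without dCas9 d it was 2.16. Translational efficiency was 0.94 ± 0.58 (adjusted p = 0.837), and 2.25 without dCas9 d. PERK mRNA at 36 h was 20.5, 30.1 and 34.6 CPM in Cas9 a, b and c and 29.0 and 33.7 CPM in dCas9 d and e, overlapping, with Cas9 a the lowest of the 5 (-0.14 ± 0.16). At 72 h PERK footprints were 15.1 and 8.48 CPM in Cas9 e and f and 11.9 and 8.30 CPM in dCas9 e and f, again overlapping (0.17 ± 0.31). PERK mRNA at 72 h was 34.8 and 37.1 CPM in Cas9 a and b and 28.6 and 34.3 CPM in dCas9 a and b. It was the only member whose mRNA was higher in both Cas9 libraries than in both dCas9 libraries at 72 h (0.19 ± 0.14, adjusted p = 0.533).

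GCN2 footprints at 36 h were 36.5 and 43.99 CPM in Cas9 a and c and 33.5 and 19.5 CPM in dCas9 d and e. The Cas9 libraries were higher without overlap, by 0.54 ± 0.48 in log2, and translational efficiency stood at 0.48 ± 0.29 (adjusted p = 0.837). These values were 1.05 and 1.09 without footprint library dCas9 d and 0.28 and 0.33 without dCas9 e, and translational efficiency was 0.30 without Cas9 c, none of them called. GCN2 mRNA at 36 h was 107, 114 and 109.955 CPM in Cas9 a, b and c and 115 and 107 CPM in dCas9 d and e, a difference of -0.01 ± 0.11. At 72 h GCN2 footprints were 27.7 and 32.6 CPM in Cas9 e and f and 25.5 and 28.2 CPM in dCas9 e and f, which overlapped (0.18 ± 0.17). GCN2 mRNA at 72 h was 92.0 and 102.4 CPM in Cas9 a and b and 103 and 115 CPM in dCas9 a and b. Cas9 libraries were lower without overlap, the gap being small (-0.17 ± 0.13, adjusted p = 0.542), and translational efficiency was 0.35 ± 0.19 (adjusted p = 0.533).

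GCN1 had the highest counts in footprints and with them the smallest errors. Its footprints at 36 h were 416.9 and 417.3 CPM in Cas9 a and c and 367 and 404 CPM in dCas9 d and e, higher in Cas9 without overlap by 0.12 ± 0.17. GCN1 mRNA at 36 h was 544, 484 and 537 CPM in Cas9 a, b and c and 509.5 and 464 CPM in dCas9 d and e, overlapping (0.10 ± 0.09). At 72 h GCN1 footprints were 465 and 497 CPM in Cas9 e and f and 472 and 502 CPM in dCas9 e and f, a difference of -0.02 ± 0.07 with overlap. GCN1 mRNA at 72 h was 419 and 425 CPM in Cas9 a and b and 511 and 474 CPM in dCas9 a and b. Both Cas9 libraries lay under both dCas9 libraries, and -0.22 ± 0.11 was the largest mRNA difference of the 5 genes relative to its error (adjusted p = 0.372).

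Across the 5 genes, the groups did not overlap for 4 in footprints at 36 h, where this held for 30.5% of all genes tested, for 1 in mRNA at 36 h (16.9% of all genes), for 0 in footprints at 72 h (31.7%) and for 4 in mRNA at 72 h (49.6%). The directions were mixed at 36 h, with 3 of the 4 footprint differences without overlap higher and PKR lower. In mRNA at 72 h 3 of the 4 were lower and PERK was higher, and the median of the 5 differences was -0.17 where the median of all genes was 0.02. Differences between times were asked in 1 model over both. For the Cas9 effect at 72 h minus that at 36 h, edgeR called 0% of 8970 genes in footprints (287 had an unadjusted p under 0.05) and 0.613% in mRNA, none of them among the 5. The mRNA difference at 72 h minus that at 36 h was largest relative to its error for GCN1, at -0.33 ± 0.13 (adjusted p = 0.324).

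**Figure D4:**
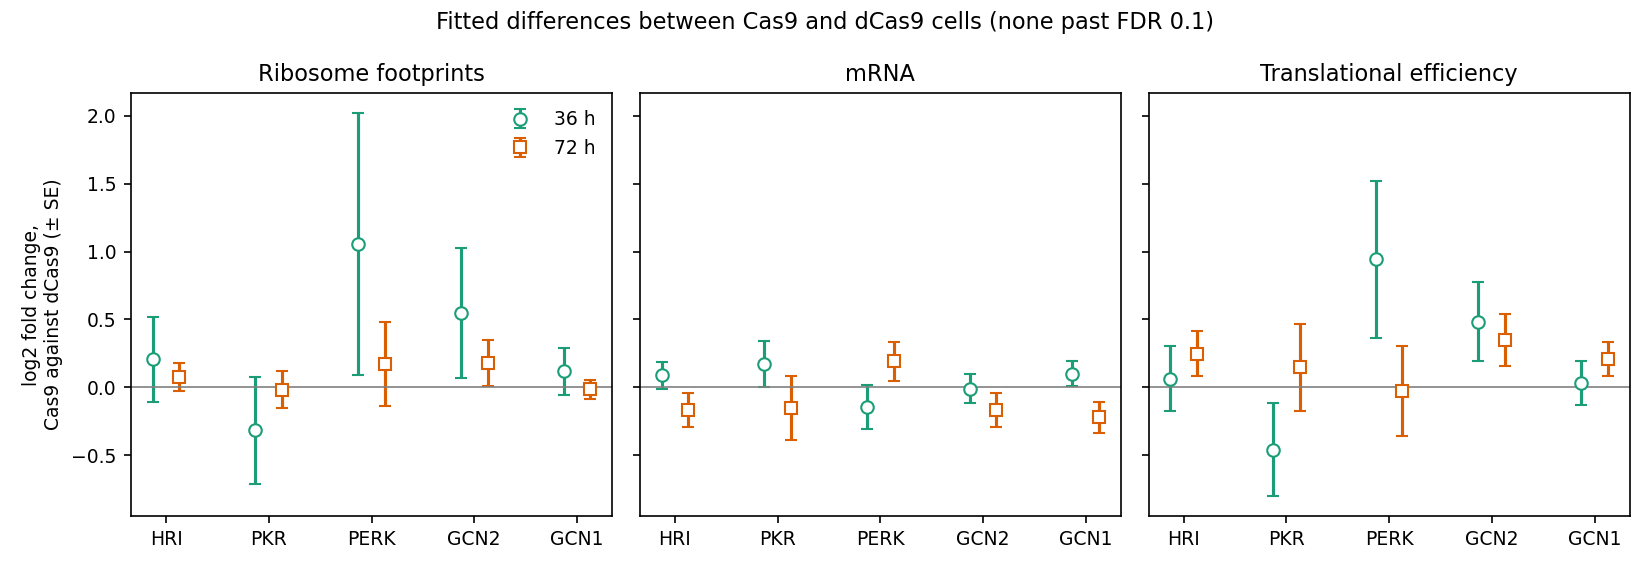
Log2 difference of Cas9 against dCas9 (vertical axis) for each of the 5 genes in footprints, mRNA and translational efficiency at 36 h and 72 h, with bars of 1 standard error of the fit. The widest bar is that of PERK footprints at 36 h (1.06 ± 0.97), and no value passed the false discovery rate of 0.1.

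The wide gap of PKR mRNA between the dCas9 libraries at 72 h went in part with GC content. From dCas9 a to dCas9 b its log2 CPM differed by 0.94, more in size than 99.4% of tested genes. Over all tested genes the same difference fell with the GC content of the coding sequence (Spearman's rho = -0.83 across genes, which are not independent and share both libraries), and the 640 genes with a GC content of 35% to 40% had a median of 0.59 with quartiles of 0.46 and 0.73. After the trend with GC was taken off, 0.32 remained for PKR, still more in size than 94.5% of genes. Between the Cas9 libraries a and b the trend was not monotonic (rho = 0.09), the median of that GC class was -0.22 and PKR stood at 0.19. Taking the trend off widened this PKR gap between the Cas9 libraries to 0.46, more in size than 98.1% of genes. With the GC trend corrected in every library the PKR difference between Cas9 and dCas9 mRNA at 72 h was -0.37 (adjusted p = 0.116), and with the correction HRI was called at -0.21 (adjusted p = 0.0721). Without dCas9 a the PKR difference was -0.55 (adjusted p = 0.0632), and without dCas9 b it was 0.40 (adjusted p = 0.0688). The direction of PKR mRNA after a cut at 72 h therefore depended on which of these libraries was kept.

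**Figure D5:**
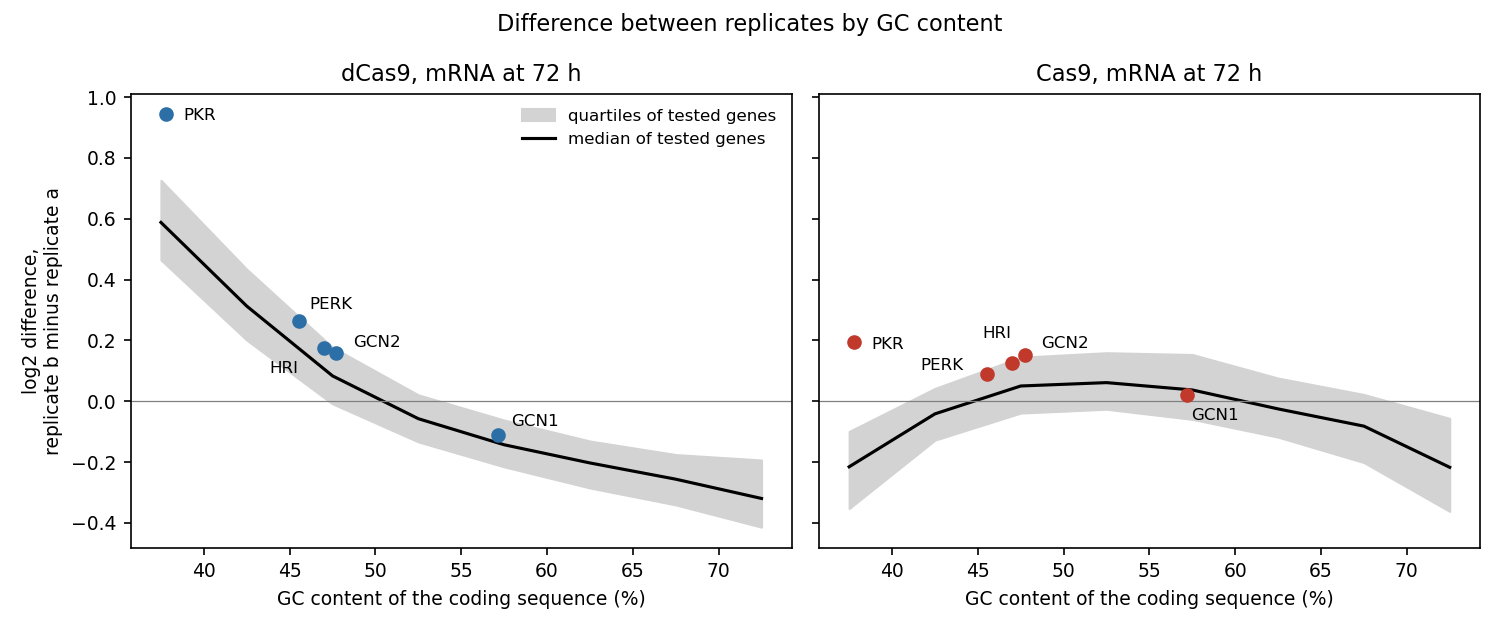
Log2 CPM of replicate b minus replicate a in mRNA at 72 h (vertical axis) against the GC content of the coding sequence (percent, horizontal axis), for dCas9 on the left and Cas9 on the right, with the median (line) and quartiles (shading) of all tested genes and a point for each of the 5 genes. PKR, at 37.8% GC, lies at 0.94 in dCas9, above the quartiles of its class (0.46 to 0.73), and at 0.19 in Cas9.

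The second wide gap was that of PERK mRNA at 36 h. From Cas9 a to Cas9 c it differed by 0.76 in log2, more in size than 99.1% of genes, and 0.65 remained after the GC trend was taken off. HRI and GCN2 differed between the same libraries by 0.03 and 0.04.

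Isoforms could be followed only where the 72 h tables listed a second coding form. A shorter PKR form lacks a coding exon of 123 bases at chr2:37126289-37126411 (minus strand, 41 codons, GC content 32.5%). Relative to the rest of the coding sequence, the density of counts in this exon was 0.952 and 0.657 in Cas9 e and f and 0.895 and 0.845 in dCas9 e and f in footprints, from 12 to 28 counts each. In mRNA it was 1.66 and 1.43 in Cas9 a and b and 0.790 and 1.58 in dCas9 a and b, reads across the exon's borders being counted too. In this mRNA density the library dCas9 a was the one apart, with 69 counts in the exon. For GCN2, the shorter form shares the first 10 of 39 coding exons, and the density in that part relative to the rest was 1.02 ± 0.316 in footprints and 1.08 ± 0.0804 in mRNA (SD, n = 4).

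Genes that varied most like each member over the 17 libraries, after the mean of each library type and time was taken off, were ZSWIM6 (Pearson's r = 0.97) and PCYOX1 (0.94) for HRI, SYNCRIP (0.90) and PRPF4B (0.89) for PKR, BCKDHB (0.94) and UBE2N (0.93) for PERK, ADGRA3 and ATP7B (both 0.95) for GCN2 and UHRF1 (0.93) and FASN (0.90) for GCN1. These are descriptions over 17 libraries that share depth and composition, among 8969 genes, and the shallow footprint library dCas9 e at 36 h weighs on them. Without it r was 0.90 and 0.77 for the genes of HRI, 0.78 and 0.76 for those of GCN2 and 0.87 and 0.82 for those of PERK, while those of PKR stayed at 0.89 and those of GCN1 at 0.93 and 0.90. Between members, HRI and GCN2 had r = 0.87 with this library and 0.49 without it, and PERK with GCN2 0.64 and -0.15.

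Of the 29 pathway genes, none was called between Cas9 and dCas9 in footprints at either time or in mRNA and translational efficiency at 36 h, with medians of 0.01, 0.01, 0.03 and -0.04 in footprints at 36 h, footprints at 72 h, mRNA at 36 h and translational efficiency at 36 h. At 72 h 1 of 26 was called, HSPA5. HSPA5 mRNA was 119 and 140.2 CPM in Cas9 a and b and 199 and 288 CPM in dCas9 a and b, lower in both Cas9 libraries, and it fell by 0.91 ± 0.17 in log2 (adjusted p = 0.0281), a call that was lost without Cas9 a (-0.80, adjusted p = 0.215). Its footprints at 72 h were 728 and 667 CPM in Cas9 e and f and 657 and 672 CPM in dCas9 e and f, so that its translational efficiency rose by 0.98 ± 0.19 (adjusted p = 0.0409), a call that was lost without any of the 4 footprint libraries (adjusted p between 0.217 and 0.383). PERK, which HSPA5 binds, had a translational efficiency difference of -0.03 ± 0.33 at that time. The mRNA effect on HSPA5 also differed between times, by -1.08 (adjusted p = 0.0483), and this call was lost without any of 5 of the 9 mRNA libraries, Cas9 a, b, c and dCas9 e at 36 h and Cas9 a at 72 h (-0.95 to -1.14, adjusted p between 0.103 and 0.289). EIF2S1 footprints differed by -0.55 ± 0.26 at 36 h (adjusted p = 0.999), and those of ATF4 by -0.25 at 36 h and 0.06 at 72 h, neither called.

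Interferon-induced genes were looked at because PKR is one of them. Of 23 on the list, 7 were tested at 36 h and 11 at 72 h, and 0 were called between Cas9 and dCas9 in any measure, with medians of -0.02 and -0.07 in footprints and 0.01 and 0.14 in mRNA at 36 h and 72 h. The summed level of the list overlapped between groups in footprints at 36 h (420 to 456 CPM in Cas9, 403 to 433 CPM in dCas9) and in mRNA at 72 h (535 to 602 and 595 to 603 CPM). It did not overlap in mRNA at 36 h, where Cas9 was higher (616 to 635 against 608 to 610.3 CPM), nor in footprints at 72 h, where Cas9 was lower (453 to 457 against 471 to 476 CPM). The sum was mostly ADAR, which alone gave 401 to 418 CPM in mRNA at 36 h and 261 to 275 CPM in footprints at 72 h. MX1, a strongly induced member, reached at most 1.35 CPM in any mRNA library, IFIT2 0.489 CPM and IFIT1 7.57 CPM, whereas PKR itself stood at 24.1 to 62.3 CPM. For footprints against mRNA in control cells, 1 of the 7 was called higher and 1 lower at 36 h, and 3 of the 11 higher and 4 lower at 72 h, with medians of 0.17 and -0.30. Of all tested genes 23.6% were called higher and 24.6% lower at 36 h, and 32.7% and 37.8% at 72 h. Their medians were -0.01 and -0.06. IFI6 was the highest on the interferon list, at 2.31 ± 0.44 and 2.19 ± 0.25, and at 72 h RIGI (-1.23 ± 0.26), PARP9 (-1.04 ± 0.26) and ADAR were among the lower ones.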

How the data were processed

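Footprint and mRNA counts per transcript were used as deposited by the authors, 1 table per library (raw counts over coding sequence, trimmed at its ends). Reads were aligned to GRCh38, with HISAT2 2.1.0 per the submitters' processing notes, and per the methods with HISAT2 and GENCODE annotation at 36 h and TopHat and a later annotation at 72 h. Transcript IDs were matched to GENCODE v44 (3.74% and 4.22% of counts unmatched at 36 h and 72 h), and the transcript with the highest summed count stood for each gene. Genes with a mean of 20 or more counts in both library types of a time point were tested with edgeR 4.0.16 (quasi-likelihood, TMM, R 4.3.3) per time and library type, and in 1 model without a lysate term for translational efficiency and for footprints against mRNA. CPM is per 1000000 counts on tested genes after TMM scaling. The false discovery rate was 0.1. Scripts were tested on simulated data. Alternatives were DESeq2 1.42.0, limma 3.58.1 voom, other filters and size factors, replicate blocks, a GC correction and each library left out. Crossed blocks, and voom for footprints against mRNA, were chosen after seeing the data. Named were the 5 genes in every comparison and, of the pathway and interferon lists, ATF4, EIF2S1 and at most 3 called genes per direction by adjusted p. Members and lists were chosen with earlier results of these data known. The titles of the 72 h Cas9 footprint libraries write rcas9, and the treatment label gave their nuclease. Intervals cover counting error only and leave out the spread between libraries. They treat reads as independent, which PCR copies of a molecule are not.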

Additional observations from a re-analysis of the deposited data

How the results depend on the processing

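Over 665 alternative values for the 5 genes, 624 kept their direction and side of the threshold and 10 gained a call with the sign kept. Another 31 changed sign and 0 lost a call. Values that changed sign were counted only as such, whether called or not. The calls in footprints against mRNA in dCas9 cells (4 genes at 36 h, 3 at 72 h) were kept under every alternative run, with GCN1 added at 72 h by filterByExpr (0.23) or without the mRNA library dCas9 a (0.25), and EIF2AK2 without dCas9 b (0.68). The alternatives run for this comparison held no GC correction and no replicate block. Whether its ratios follow GC content was not tested. In mRNA at 72 h, 0 of the 5 genes were called as reported, 1 with the GC correction (EIF2AK1), 3 with the replicate block and the GC correction together (EIF2AK1, EIF2AK2, EIF2AK4; the block alone gave 0), and 0 to 3 with a library left out. Over all genes, mRNA at 72 h had 293 calls as reported, 185 with median-ratio size factors, 494 with no count minimum, 613 with both library types in 1 fit, 2372 with the GC correction and 3074 with block and GC correction, and translational efficiency at 72 h had 78, against 136 with voom, 170 with median-ratio factors, 221 with DESeq2, 260 with no minimum, 572 with the GC correction and 741 with the block too. Footprints at 72 h had 4, with 0 to 7 in the alternatives that kept all libraries. For mRNA at 36 h there were 2, with 0 to 2 in the same alternatives. The mRNA difference between times had 55, with 213 by DESeq2 and 35 by filterByExpr. These counts moved further with a library left out, as did those of footprints and translational efficiency at 36 h. Such a fit can leave 1 library in a group. Signs turned in other settings for uncalled values only: EIF2AK1 translational efficiency at 36 h with limma voom (-0.042), EIF2AK3 translational efficiency at 72 h with the GC correction (0.026) and with the replicate block and GC correction (0.061), and GCN1 translational efficiency at 36 h with the lysate as replicate block (-0.023) and with the GC correction (-0.038).

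With 1 library left out, EIF2AK1 ranged from -0.035 to 0.60 in footprints at 36 h, from -0.015 to 0.18 at 72 h, from -0.11 to 0.50 in translational efficiency at 36 h and from -0.51 to 0.12 in the footprint difference between times. EIF2AK2 ranged from -0.14 to 0.13 in footprints, from -0.55 to 0.40 in mRNA and from -0.36 to 0.52 in translational efficiency at 72 h, from -0.21 to 0.68 in footprints against mRNA at 72 h and from -0.71 to 0.23 in the mRNA difference between times. EIF2AK3 ranged from -0.31 to 0.043 in mRNA at 36 h, from -0.24 to 0.59 in footprints and from -0.43 to 0.41 in translational efficiency at 72 h. EIF2AK4 ranged from -0.069 to 0.047 in mRNA at 36 h. GCN1 ranged from -0.066 to 0.030 in footprints at 72 h and from -0.061 to 0.10 in translational efficiency at 36 h. ATF4 footprints ranged from -0.61 to 0.10 at 36 h and from -0.061 to 0.17 at 72 h. Leaving out a library moved the all-gene count in mRNA at 72 h between 5 and 2828, and that in translational efficiency between 1 and 1065.

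Deviations of same-letter libraries correlated little (0.01 in footprints and -0.14 in mRNA at 72 h, and 0.06 and 0.01 between the lysates at 36 h). These values rest on few libraries and cannot show whether the letters pair the samples. Lysates were split per the study's methods, so same-letter footprint and mRNA libraries at 36 h can share a lysate. The replicate block moved the all-gene count in mRNA at 72 h to 726, and a crossed block, added after seeing the data, to 829. Depth limits EIF2AK3 most, whose footprints at 36 h rest on 2 to 44 counts.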
